A study of Gallus gallus with 12 samples.

Results

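Scavenger receptors and the receptors and bridging proteins with which macrophages take up dying cells were followed in HD11, a virus-transformed chicken line of macrophage-like cells, after Se-methylselenocysteine (SeMC) or lipopolysaccharide (LPS). The set was chosen by gene symbol, with earlier results of these data known. It holds 10 names, MARCO, MSR1, CD36, SCARB1, STAB1, MERTK, TYRO3, GAS6, TIMD4 and MFGE8, of which 8 were listed among the 16161 genes of the count table. MSR1 and TYRO3 were not analysed here under those names, and the RefSeq gene table of GRCg7b gives TYRO3 as a synonym of AXL, which is described below as a related gene. The SeMC group (SeMC+PBS in the labels) was seeded in medium with 100 µM SeMC 12 h before the time of challenge. The LPS group received 100 ng/mL LPS for 6 h without SeMC, and the Control (CTR) group received PBS. All cells were grown at the same temperature in medium with bovine and chicken serum, and all carried the same transformed background. Each group had 3 libraries, and since nothing states that they came from separate cultures, the p-values measure only the spread between these libraries. A further 3 libraries of cells given SeMC and LPS were left out, because each of their counts is the average of the same-numbered LPS and SeMC libraries, rounded down, in 16160 of 16161 genes, all 8 members included.

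Scavenger receptors are surface proteins that bind modified lipoproteins, bacterial surface molecules and other polyanionic or lipid ligands and carry them into the cell. In the uptake of apoptotic cells, phosphatidylserine exposed on the dying cell is bound either directly, by receptors such as TIMD4 and STAB1, or through soluble bridging proteins. GAS6 links it to the TAM family of receptor tyrosine kinases, to which MERTK, AXL and TYRO3 belong, and MFGE8 links it to integrins. These roles are known mainly from mammals, and macrophages are the cell type best known for both activities.

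The libraries held 10656332 to 11531551 counts in SeMC, 13451069 to 14018893 in LPS and 14972385 to 17024392 in Control. Levels are given as CPM, the count of a gene scaled by its TMM-adjusted library size, which was set over the 9 libraries together. All 10 macrophage markers examined, CSF1R and PTPRC among them, were detected in each group. Of 10 LPS response genes listed, IL6 was not in the table, and the other 9 were all higher in LPS than in Control. The summed level of the B cell markers present in the table was at most 1.69 CPM in any library. The 4 T cell markers in the table summed to 119 to 130.1 CPM in SeMC, 123 to 134.9 CPM in LPS and 104 to 117 CPM in Control. Most of this sum was CD28 and TARP, a T cell receptor gamma gene, while CD3E had no more than 10 counts in a library. A gene was called at a false discovery rate (FDR, the adjusted p) under 0.05 and a fold change above 1.5 in the quasi-likelihood test of edgeR.

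LPS-treated cells had lower levels of most members than Control cells. Of the 7 members with enough counts to be tested, 5 were called lower than in Control (MARCO, MERTK, TIMD4, STAB1 and CD36) and none higher. Over all 13008 genes tested, 12.0% were called, with 5.92% of the genes tested called lower and 6.13% called higher. The other 2, SCARB1 and MFGE8, had an FDR under 0.05 at a smaller fold change. With no fold-change minimum all 7 members and 34.5% of all genes passed, those called above included. The median log2 fold change of the 7 was -0.84, against 0.00 over all genes tested. Because the members were chosen with earlier results of these data known, these counts and medians describe the set and do not test it. The SeMC cells differed from Control in fewer members. MARCO and TIMD4 were called lower, 2 of 7, and none was called higher. Over all 13146 genes tested, 14.1% were called, with 5.58% lower and 8.50% higher. Without the fold-change minimum MFGE8 was the third member, where 39.3% of all genes passed. The median log2 fold change of the members was 0.06 against 0.00 over all genes.

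**Figure D1:**
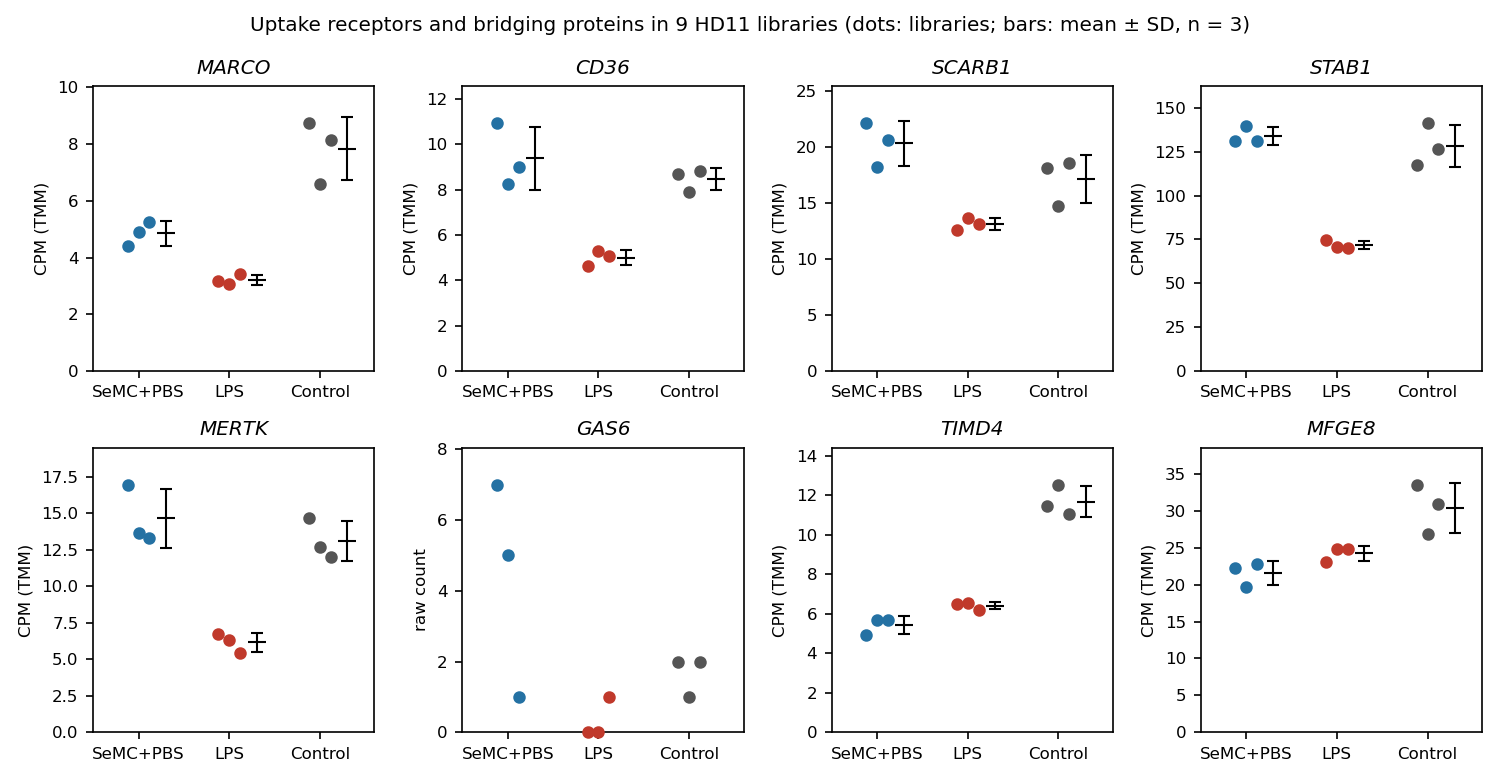
Levels of the 8 members in each of the 9 libraries, as CPM relative to TMM-adjusted library sizes on linear axes from 0 (GAS6 as raw counts), with SeMC+PBS, LPS and Control from left to right and the mean and SD of 3 libraries beside the dots. In MARCO, CD36, SCARB1, STAB1 and MERTK the LPS libraries lie below the libraries of both other groups. In TIMD4 and MFGE8 the SeMC+PBS libraries are the lowest. Of all genes tested, 46.1% had no overlap between groups in LPS/CTR, 50.9% in SeMC/CTR and 61.3% in SeMC/LPS.

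Among the scavenger receptors, MARCO (chromosome 7, 28099485 to 28109391 of GRCg7b), a collagen-like receptor that binds bacteria and their surface lipids, had the largest decrease of the 7 tested members in LPS. Its level was 3.17, 3.05 and 3.41 CPM in the LPS libraries, against 8.74, 6.60 and 8.16 CPM in Control. The groups did not overlap, as was the case for 46.1% of the genes tested, and the log2 fold change was -1.28 (standard error, SE, 0.186, adjusted p = 7.1e-05, edgeR). In SeMC the level was 4.41, 4.89 and 5.27 CPM, again below each Control library (50.9% of genes had no overlap in SeMC/CTR), a log2 fold change of -0.69 (SE 0.178, adjusted p = 0.0065, edgeR). The SeMC libraries were thus intermediate. Compared directly with LPS, SeMC had a log2 fold change of 0.58 at an adjusted p of 0.036 (edgeR) and lay just under the fold-change minimum. Under DESeq2 this adjusted p was 0.120. MARCO rested on 41 to 61 counts per LPS or SeMC library, so counting error alone gives a coefficient of variation of 15.4% in LPS and 13.4% in SeMC. The values observed between the libraries were smaller, 5.70% in LPS and 8.91% in SeMC.

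CD36 (chromosome 1, 11389956 to 11428714), a receptor for oxidized lipoproteins, long-chain fatty acids and apoptotic cells, was lower in LPS alone. The LPS libraries had 4.63, 5.29 and 5.08 CPM, against 8.68, 7.91 and 8.80 CPM in Control, the groups did not overlap, and the log2 fold change was -0.76 (SE 0.156, adjusted p = 0.0015, edgeR). The SeMC libraries had 10.9, 8.23 and 8.98 CPM and overlapped those of Control. Here the log2 fold change was 0.15, with an interval of 2 standard errors from -0.15 to 0.45 (adjusted p = 0.44, edgeR). In the direct comparison CD36 was 1.86-fold higher in SeMC than in LPS (adjusted p = 0.00062, edgeR).

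SCARB1 (chromosome 15, 4530835 to 4547032), the receptor for high-density lipoprotein and a relative of CD36, had 12.6, 13.6 and 13.1 CPM in LPS and 18.1, 14.7 and 18.6 CPM in Control. All LPS libraries were below all Control libraries, but the log2 fold change of -0.39 (SE 0.118, adjusted p = 0.020, edgeR) stayed under the minimum and the gene was not called. Its level in SeMC was 22.1, 18.2 and 20.6 CPM, with a log2 fold change over Control of 0.25, an interval of 0.01 to 0.48 and an adjusted p of 0.105 (edgeR). SeMC was 1.54-fold higher than LPS (adjusted p = 0.00035, edgeR), which was called. Without SeMC replicate 1, the highest library, the log2 fold change of 0.62 became 0.56 and was no longer called.

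STAB1 (chromosome 12, 689338 to 741663) encodes stabilin-1, a large endocytic receptor that binds modified lipoproteins and phosphatidylserine. It was the member with the most counts, 923 to 2186 per library, and so the smallest error. The LPS libraries had 74.4, 70.8 and 69.9 CPM, against 117, 141 and 127 CPM in Control, a log2 fold change of -0.84 (SE 0.0721, adjusted p = 2.9e-07, edgeR). In SeMC, STAB1 had 131, 139.7 and 131 CPM, within the range of Control. The log2 fold change in SeMC/CTR was 0.06 with an interval of -0.08 to 0.19 (adjusted p = 0.52, edgeR), so that a change of 1.5-fold lay outside it. SeMC exceeded LPS 1.85-fold (adjusted p = 3.5e-08, edgeR).

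MERTK (chromosome 3, 3378885 to 3399906), the TAM receptor kinase best known for the clearance of apoptotic cells by macrophages and listed in RefSeq also as C-EYK, had 6.72, 6.33 and 5.46 CPM in LPS. The Control libraries had 14.6, 12.7 and 12.0 CPM, with no overlap between the groups. The log2 fold change was -1.08 (SE 0.146, adjusted p = 3.5e-05, edgeR), a 2.12-fold lower level in LPS. In SeMC the level of MERTK was 16.9, 13.7 and 13.3 CPM, overlapping Control, and the log2 fold change of 0.16 had an interval of -0.10 to 0.42 (adjusted p = 0.33, edgeR). MERTK had the largest difference of the 7 tested members between SeMC and LPS, 2.35-fold higher in SeMC (adjusted p = 1.6e-05, edgeR).

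The ligands of this receptor were also examined. GAS6 (chromosome 1, 137181389 to 137218773) had 7, 5 and 1 counts in SeMC, 0, 0 and 1 in LPS and 2, 1 and 2 in Control. These values were below the filter on low counts, and GAS6 was not tested in the comparisons above. Without the filter it was called higher in SeMC than in LPS (adjusted p = 0.040, edgeR), whereas DESeq2 gave an adjusted p of 0.075. It was called in neither comparison with Control without the filter (adjusted p = 0.43 in LPS/CTR and 0.18 in SeMC/CTR, edgeR). PROS1, which encodes protein S, the other ligand of TAM receptors, and AXL were named because they belong with this family, after their values were seen. TYRO3, given by RefSeq as a synonym of AXL, was not analysed under its own name. For AXL the log2 fold change was -0.04 in LPS/CTR (SE 0.0785, adjusted p = 0.70, edgeR) and of 0.07 in SeMC/CTR (SE 0.0913, adjusted p = 0.58, edgeR). For PROS1 the values were 0.09 (SE 0.0792, adjusted p = 0.39, edgeR) and 0.20 (SE 0.0780, adjusted p = 0.049, edgeR), neither of which reached the fold-change minimum. Of these TAM receptors and ligands, MERTK alone was called in LPS/CTR, and the difference between MERTK and AXL was not tested.

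TIMD4 (chromosome 13, 11071237 to 11087415), a phosphatidylserine receptor that tethers apoptotic cells, was the member with the largest decrease in SeMC. Its level was 4.91, 5.70 and 5.70 CPM in SeMC, against 11.5, 12.5 and 11.1 CPM in Control. The log2 fold change was -1.10 (SE 0.147, adjusted p = 6.5e-05, edgeR), a 2.15-fold lower level. LPS had 6.49, 6.55 and 6.21 CPM and was likewise below Control, with a log2 fold change of -0.86 (SE 0.137, adjusted p = 0.00017, edgeR). Every SeMC library was below every LPS library, and 61.3% of the genes tested in this comparison had no overlap, in either direction. The direct log2 fold change of TIMD4, -0.25, was still not significant (interval -0.59 to 0.09, adjusted p = 0.23, edgeR). It had an adjusted p of 0.040 with limma on quantile-normalized values.

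TIMD4 shares part of its span with HAVCR1 and SGCD, and no source used here says whether strand was used in counting, so its reads and theirs cannot be fully separated. HAVCR1, a TIM family gene adjoining TIMD4, was at -0.21 in LPS/CTR and -0.22 in SeMC/CTR on the log2 scale, against -0.86 and -1.10 for TIMD4. SGCD, a muscle sarcoglycan gene, had 24, 24 and 34 counts in SeMC, 5, 2 and 6 in LPS and 10, 2 and 2 in Control. In SeMC/CTR it was at 2.97 on the log2 scale (adjusted p = 0.00049, edgeR), opposite in sign to that of TIMD4. The effect of the overlap on the counts of TIMD4 was not tested. None of the other 7 members overlapped another annotated gene.

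MFGE8 (chromosome 10, 13046524 to 13053821), the secreted bridge between phosphatidylserine and integrins, had 22.3, 19.7 and 22.7 CPM in SeMC, 23.1, 24.8 and 24.9 CPM in LPS and 33.5, 26.8 and 30.9 CPM in Control. Both treated groups lay below all Control libraries. The log2 fold change was -0.49 in SeMC/CTR (SE 0.101, adjusted p = 0.0015, edgeR) and -0.33 in LPS/CTR (SE 0.0940, adjusted p = 0.014, edgeR). Both were under the fold-change minimum, so the gene was called in neither comparison. SeMC and LPS did not differ beyond the test, with a log2 fold change of -0.18 and an interval of -0.36 to 0.00 (adjusted p = 0.12, edgeR).

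**Figure D2:**
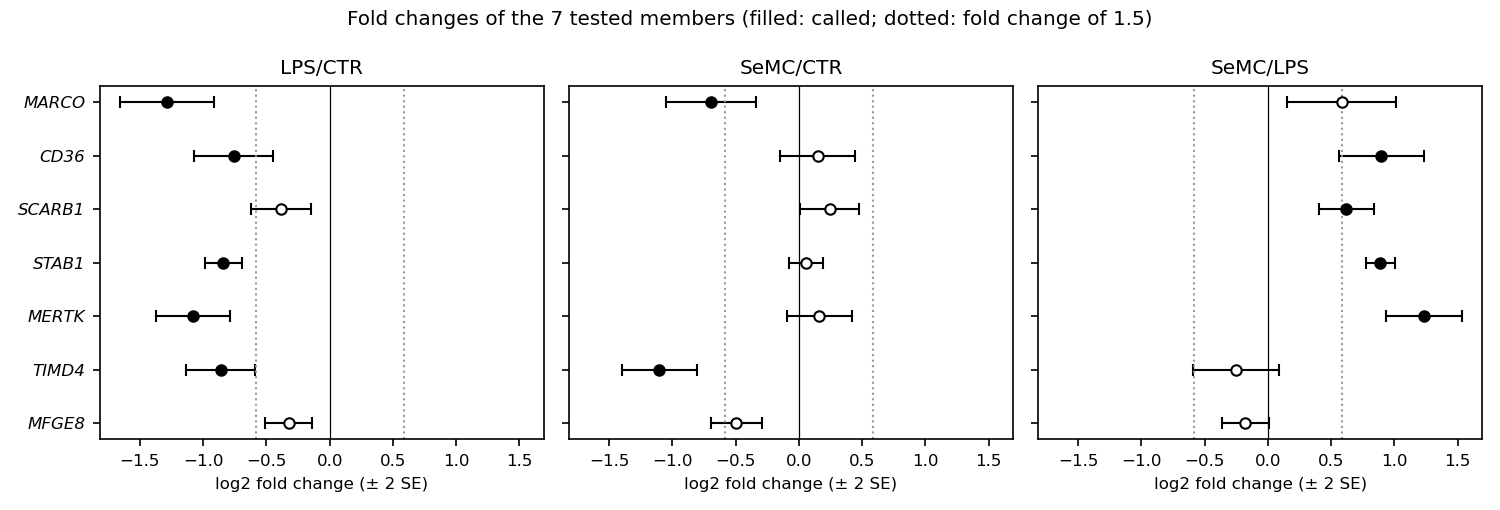
Log2 fold changes of the 7 tested members in LPS/CTR, SeMC/CTR and SeMC/LPS, with bars of 2 standard errors, filled symbols for genes called and dotted lines at a fold change of 1.5. All 7 lie below 0 in LPS/CTR, from -1.28 to -0.33, whereas only MARCO, TIMD4 and MFGE8 lie below 0 in SeMC/CTR.

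By the order of their levels, the members fell into different patterns. CD36, SCARB1, STAB1 and MERTK were lowest in LPS, and their SeMC and Control libraries were not separated by the test. MARCO was lowest in LPS and highest in Control, with SeMC between them. TIMD4 and MFGE8 were highest in Control, with LPS and SeMC not separated by the test. The LPS/CTR and SeMC/CTR comparisons share the Control libraries, so the direct SeMC/LPS comparison is the test of a difference between the responses. The groups also differed in timing, with SeMC from 12 h before challenge and LPS for 6 h. Agent and timing cannot be told apart. In the direct comparison 4 of the 7 members, CD36, SCARB1, STAB1 and MERTK, were called higher in SeMC and none lower. Over all 12979 genes tested, 22.9% were called, with 12.5% higher and 10.4% lower. Without the fold-change minimum MARCO was the fifth member, where 54.3% of all genes passed.

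**Figure D3:**
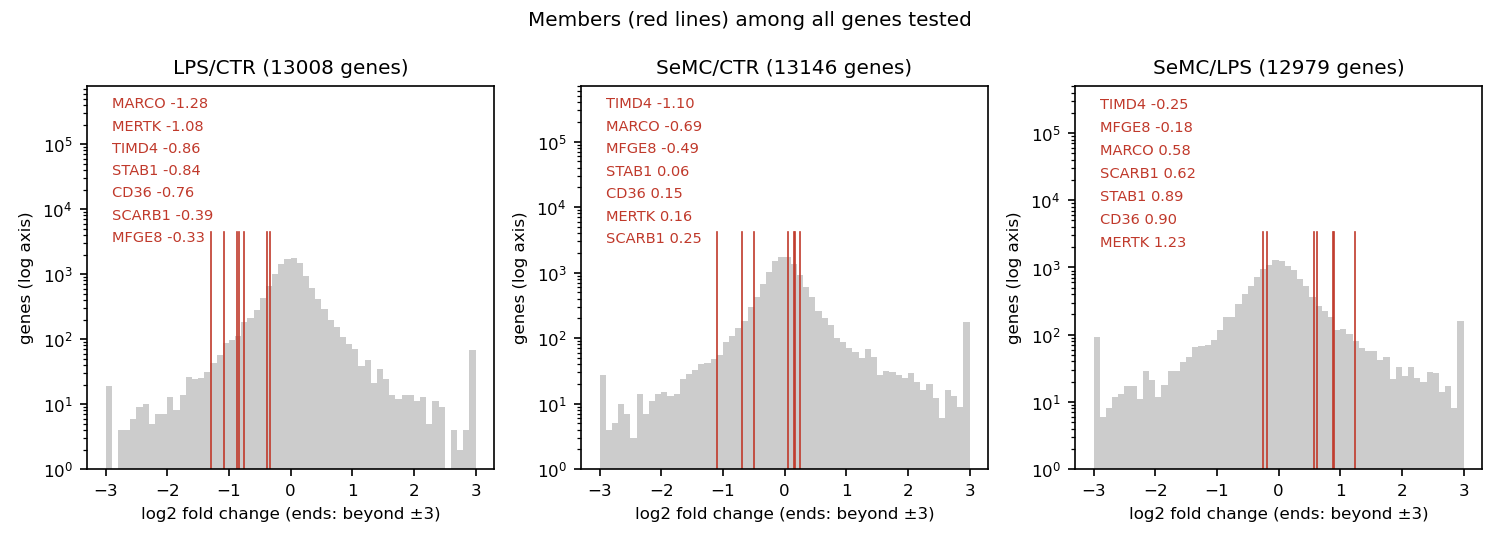
Distribution of the log2 fold changes of all genes tested in each comparison (grey bars, genes per bin of 0.1 on a log axis, values beyond 3 in either direction in the end bins), with the 7 members as red lines and their values listed. In LPS/CTR the members stand in the lower flank, where 1.70% of genes had a lower fold change than MARCO and 16.7% a lower one than MFGE8.

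Some markers moved with these results. In LPS, 4 of the 10 macrophage markers were called lower and 3 higher than in Control. Of all genes tested, 5.92% were called lower and 6.13% higher. CSF1R, the receptor for macrophage colony-stimulating factor, had a log2 fold change of -2.72, MPEG1 of -1.46 and LYZ of 3.00. The other markers called were IRF8 (-1.34) and MRC1 (-1.07), both lower, and CYBB (0.81) and SPI1 (0.75), both higher. The summed level of the list was 4630 to 4888 CPM in LPS, against 3192 to 3363 CPM in Control. Without LYZ the other 9 summed to 2637 to 2692 CPM in LPS, against 2922 to 3091 CPM in Control, so that the direction of the sum turned on this gene. In SeMC none of the 10 was called, and the sum of all 10 was 2856 to 3135 CPM. A few markers of other cell types were higher in SeMC at low levels. Of 7 thrombocyte and erythroid markers listed, 3 were in the table, with 7 to 44 counts per SeMC or Control library. They summed to 6.42 to 9.16 CPM in SeMC, against 2.65 to 3.99 CPM in Control. All 3 were called higher, where 8.50% of all genes were. COL1A1, a fibroblast collagen, and JCHAIN were called higher too. TARP was higher below the fold-change minimum, at 0.37 on the log2 scale in SeMC (adjusted p = 0.0013, edgeR) and at 0.53 in LPS (adjusted p = 5.7e-05, edgeR). CD28 was not called, and CD3E and PAX5 had no counts in SeMC. The part of these markers in the results was not tested. In RNA from whole cultures, fewer cells expressing a gene and less RNA per cell cannot be told apart.

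Genes that act beside the members were examined in 5 lists. Over all genes tested, 12.0% were called in LPS/CTR, 5.92% lower and 6.13% higher. In SeMC/CTR 14.1% were called, 5.58% lower and 8.50% higher. The lists are short, and their counts were not tested against these shares. Of 12 other scavenger and pattern-binding receptors in the table, 9 were tested in LPS/CTR, and 2, LRP1 and MRC1, were called lower and none higher. The count was 1 without LPS replicate 2 or 3 or Control replicate 1 or 3, where MRC1 was not called. LRP1, an endocytic receptor for many ligands and for calreticulin on dying cells, had 1775 to 1959 CPM in LPS, against 3061 to 4161 CPM in Control, a log2 fold change of -0.97 (adjusted p = 5.7e-07, edgeR). LRP1 overlaps STAT6, and its count is uncertain to that extent. In SeMC/CTR 10 were tested, with 2 called higher (STAB2 and MEGF11) and 1 lower. MEGF11 was called in only 3 of 14 alternative fits, and in none that left out a library. PTAFR, the receptor for platelet-activating factor, was the one called lower, with 19.4 to 24.4 CPM in SeMC, against 31.4 to 37.3 CPM in Control (log2 fold change -0.65, adjusted p = 0.00020, edgeR). Without SeMC replicate 2, PTAFR had a log2 fold change of -0.56 and was not called. It overlaps EYA3.

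Of the 12 other apoptotic-cell receptors and bridging proteins tested, 3 (ITGB5, ANXA1 and LGALS3) were called lower in LPS and none higher. Of all genes tested, 5.92% were called lower in LPS/CTR and 8.50% higher in SeMC/CTR. LGALS3 was not called in 6 of 14 alternative fits, the replicate block and limma on quantile-normalized values among them, which left 2. ITGB5, the beta chain of an integrin that binds MFGE8, had 61.6 to 71.0 CPM in LPS, against 117 to 126 CPM in Control, a log2 fold change of -0.87 (adjusted p = 6.2e-08, edgeR). In SeMC/CTR 1 gene of this list, ITGB3, was called higher and none lower. ITGB3 was not called with limma on quantile-normalized values. Without SeMC replicate 3 or Control replicate 1, THBS1 was called as well, as lower. With all libraries its log2 fold change was -0.56 (adjusted p = 0.0043, edgeR).

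Of 17 genes of engulfment signalling, 2 were called lower in LPS and 1 higher in SeMC. These were all the calls of the list, where 12.0% of all genes were called in LPS/CTR and 14.1% in SeMC/CTR. The counts are therefore not read as a result about the list. ABCA1, a cholesterol exporter that acts after the uptake of cells and lipoproteins, was called in both comparisons and in opposite directions. Its level was 179 to 202 CPM in SeMC, 56.9 to 63.2 CPM in LPS and 120.1 to 128 CPM in Control, with no overlap among the groups. The log2 fold change was -1.05 in LPS/CTR (adjusted p = 3.8e-09, edgeR) and 0.60 in SeMC/CTR (adjusted p = 5.4e-06, edgeR). The change in SeMC was close to the fold-change minimum and was not called without SeMC replicate 3 (0.55) or without Control replicate 2 (0.58). ELMO1, an activator of RAC1 at the forming phagosome, was lower in LPS, with a log2 fold change of -0.64 (adjusted p = 5.3e-07, edgeR). It overlaps a long noncoding RNA gene.

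Of the 15 genes tested in LPS/CTR for the exposure of phosphatidylserine and for find-me and do-not-eat-me signals, 3 were called higher and 2 lower. Of all genes tested, 6.13% were called higher and 5.92% lower. ATP11A, a flippase that returns phosphatidylserine to the inner leaflet, was higher, with 219 to 259 CPM in LPS, against 113 to 128 CPM in Control (log2 fold change 0.99, adjusted p = 3.2e-08, edgeR). SPHK1, which makes the find-me lipid sphingosine-1-phosphate, was higher as well, at 0.79 (adjusted p = 6.3e-08, edgeR). P2RY2, a receptor for nucleotides released by dying cells, had a log2 fold change of -0.75 (adjusted p = 3.7e-06, edgeR), and SIRPA, the receptor for the do-not-eat-me signal CD47, of -0.70 (adjusted p = 4.5e-06, edgeR). SPHK1, P2RY2 and SIRPA overlap other annotated genes. In SeMC/CTR, where 14.1% of all genes were called, 1 of 13 was called, PANX1. The count, both directions together, was 2 or 3 without SeMC replicate 2 or 3 or any 1 of the Control libraries. With all libraries kept, CD24 was also called with DESeq2 and with no low-count filter. It was higher in SeMC, with 34, 0 and 17 counts, against 0, 1 and 1 in Control. ANO6 was called with 9 libraries in one fit, and S1PR1, which was higher in SeMC, with the replicate block. ANO6 was lower in SeMC, with 1, 1 and 3 counts, against 13, 13 and 6 in Control. PANX1, a channel that releases nucleotides, had 19.2 to 22.3 CPM in SeMC, against 11.2 to 14.1 CPM in Control (log2 fold change 0.71, adjusted p = 0.00032, edgeR).

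Of 10 tested genes in the list of receptor shedding and lipid-sensing nuclear receptors, 2 were called lower in LPS and none in SeMC. The 2 were RXRA and MAF, a macrophage transcription factor that was listed with them but belongs to neither named group. Of all genes tested, 5.92% were called lower in LPS/CTR and 14.1% were called in SeMC/CTR. RXRA, the partner of the lipid-sensing nuclear receptors, had 14.4 to 16.5 CPM in LPS, against 30.7 to 32.0 CPM in Control (log2 fold change -1.04, adjusted p = 3.3e-07, edgeR). It overlaps a long noncoding RNA gene. NR1H3, the liver X receptor, and ADAM17, a protease that sheds MERTK in mammals, were picked with their values in view and were not called, with log2 fold changes of -0.05 and 0.05 in LPS/CTR. The medians of the 5 lists in LPS/CTR were -0.20, -0.21, -0.11, -0.07 and 0.05 in the order given, all nearer to the 0.00 of all genes than the -0.84 of the members. Members and lists were both chosen with earlier results known, and the contrast between them was not tested.

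**Figure D4:**
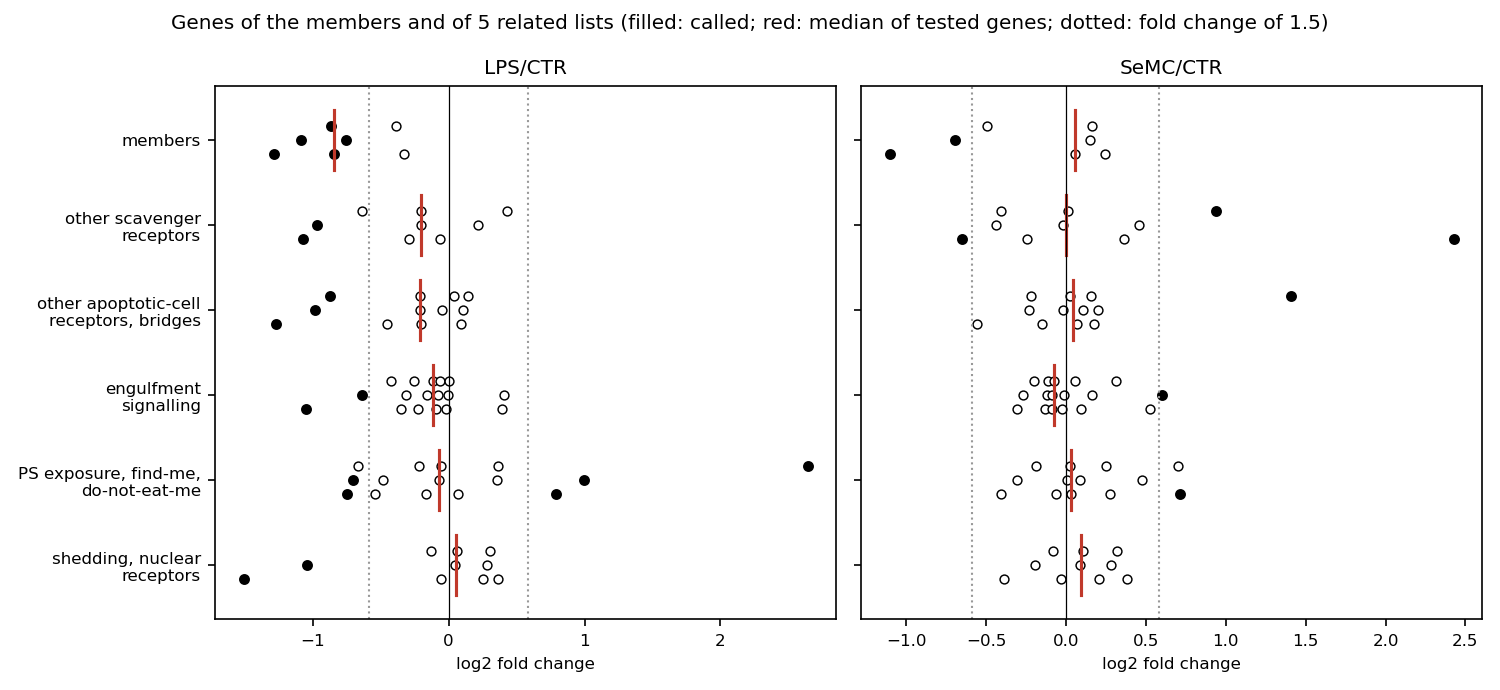
Log2 fold changes in LPS/CTR and SeMC/CTR of the tested members and of the tested genes of 5 related lists, with filled dots for genes called, red lines at the median of each list and dotted lines at a fold change of 1.5. The members have a median of -0.84 in LPS/CTR and 0.06 in SeMC/CTR, while the medians of the other lists lie between -0.21 and 0.05 in LPS/CTR.

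The genes whose group means were most like those of MARCO over the 3 groups, by the distance between log2 levels centred on each gene's own mean, were FAM114A1 (0.024), P2RY13 (0.054) and TMEM268 (0.105) among 9217 genes. Their log2 fold changes were -1.23, -1.31 and -1.35 in LPS/CTR. For TIMD4 the nearest genes were L3HYPDH (0.175), HES1 (0.191) and SMIM18 (0.192), with log2 fold changes of -1.11, -0.90 and -0.79 in SeMC/CTR. P2RY13 and SMIM18 overlap other genes.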

How the data were processed

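RNA-seq of HD11 cells was analysed for 9 of 12 libraries, 3 each of SeMC+PBS, LPS and Control, grouped by the sample titles. The authors filtered single-end reads, mapped them to GRCg7b with Hisat2, counted reads per gene with HTSeq and deposited raw counts without normalization. Tool versions, annotation release and strand setting are not given in the sources used here. Library totals were 10656332 to 17024392 counts.

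Members, lists and tests were chosen with earlier results of these data known. Each comparison used its 6 libraries in edgeR 4.0.16 (R 4.3.3), with TMM normalization, filterByExpr at a minimum count of 10, glmQLFTest and Benjamini-Hochberg adjustment over all genes tested. Standard errors were the absolute log2 fold change divided by the square root of the F statistic, and intervals are 2 standard errors to either side. The 8 members were matched to RefSeq by symbol for positions. All members were named, and from each related list up to 3 genes with the largest increase and decrease in LPS/CTR and SeMC/CTR among genes called, without overlap between groups and with a mean of at least 100 counts, while a few others are marked as picked with their values in view. Results were recomputed with DESeq2 1.42.0, RLE and upper-quartile scaling, no low-count filter, 9 libraries in one fit, a replicate block, limma-voom, limma 3.58.1 on log2 counts after quantile normalization (pseudocount 1), other fold-change minima and each library left out. The tests were tried on simulated counts. No source used here says whether replicate numbers pair the libraries, and the main fits did not pair them. Same-numbered libraries deviated together with correlations of -0.07 to 0.05 across genes, which with 3 libraries per group cannot settle this. Exon lengths and sequences were not used here, so levels of different genes were not compared. Figures were drawn with Python 3.11.15 and matplotlib 3.10.9. The PCR, ELISA, mass spectrometry and ROS measurements were not analysed here.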

Additional observations from a re-analysis of the deposited data

How the results depend on the processing

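The number of members called was 5 in LPS/CTR and 2 in SeMC/CTR under every change of tool, scaling, filter, block or left-out library, and 4 or 5 in SeMC/LPS. With no fold-change minimum, or one of 1.2, it was 7, 3 and 5. In SeMC/LPS GAS6 was called with no low-count filter and with limma on quantile-normalized values, and MARCO was called with upper-quartile scaling (0.61), with 9 libraries in one fit (0.60) and without SeMC+PBS replicate 1 (0.66), against 0.58. The log2 fold change of STAB1 in SeMC/CTR, not significant in any fit, was -0.0061 to 0.13 with each library left out, the lowest without Control replicate 1. The adjusted p of SCARB1 and MFGE8 in LPS/CTR was highest with limma on quantile-normalized values, at 0.084 and 0.086. That of MARCO in SeMC/LPS was highest with DESeq2, at 0.120. Over all genes, the numbers called with no fold-change minimum were 4491 in LPS/CTR, 5172 in SeMC/CTR and 7051 in SeMC/LPS, and above 1.2-fold 3597, 4111 and 5883, against 1567, 1850 and 2971. With each library left out they were 1438 to 1667, 1718 to 1919 and 2836 to 3075. Of the genes called in SeMC/CTR, 41.1% were higher with limma on quantile-normalized values, against 60.4% in the main fit. With the replicate block 1523, 1844 and 2971 genes and the same numbers of members were called. Of 240 list counts recomputed, 43 moved by over 1.5 times, 25 of them under another fold-change minimum. Levels per length and the promoter motif search were not run. Depth limits GAS6, with 0 to 7 counts per library. The list genes MEGF11, LGALS3 and MRC1 lost their calls in 11, 6 and 5 of 14 alternatives. Whether low counts or spread between libraries lay behind these losses was not tested.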

Other observations

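Some genes of the related lists were called but fell outside the naming rule, mostly for low counts, and were chosen after their values were seen. In LPS, MAF, a macrophage transcription factor, had 25 to 49 counts per library, against 105 to 144 in Control (log2 fold change -1.51, adjusted p = 7.4e-05, edgeR). ANXA1, which encodes annexin A1, had 43 to 53 counts in LPS, against 118 to 169 in Control (log2 fold change -1.27, adjusted p = 5.5e-05, edgeR). MRC1, the mannose receptor, had 9 to 27 counts in LPS, against 38 to 53 in Control (log2 fold change -1.07, adjusted p = 0.031, edgeR), and was not called in 5 of 14 alternative fits. LGALS3, a galectin, was called lower although its groups overlapped, with 28, 61 and 35 counts in LPS, against 107, 52 and 139 in Control, and was not called in 6 of 14 alternative fits. CX3CL1, a find-me chemokine, had 16, 29 and 19 counts in LPS, against 2, 5 and 5 in Control.

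In SeMC, STAB2, the relative of STAB1, had 44, 19 and 17 counts, against 4, 13 and 3 in Control (log2 fold change 2.43, adjusted p = 0.0026, edgeR). ITGB3, an integrin chain that MFGE8 can engage, had 29, 32 and 27 counts in SeMC, against 8, 17 and 21 in Control (log2 fold change 1.41, adjusted p = 0.0071, edgeR). MEGF11 had 26, 21 and 21 counts in SeMC, against 18, 12 and 19 in Control (log2 fold change 0.94, adjusted p = 0.045, edgeR), and was not called in 11 of 14 alternative fits. STAB2, MEGF11 and MAF overlap other annotated genes.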
